A study of Homo sapiens with 6 samples.

Results

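The mRNAs of 7 RNA-binding proteins known for stabilizing mRNA (PABPC1, PABPC4, YBX1, YBX3, ELAVL1, SYNCRIP and LARP1) were followed as RNAs crosslinked to IGF2BP3. Their clusters were those that shared 1 nt or more, on the same strand, with one of their exons in GENCODE release 44. This gave 479 of the 244645 clusters of the 6 libraries, on 7 of the 9353 protein-coding genes that had an exon cluster in any library. A cluster is a stretch of overlapping reads with T-to-C conversions, and the conversions mark 4-thiouridines that had been crosslinked to protein. IR-PAR-CLIP, which follows crosslinked RNA by an infrared dye on the adapter, had been run in HCT116 Tet-OsTIR1-PURO cells, a line derived from a human colorectal carcinoma. All cells had been labeled with 100 µM 4-thiouridine for 15 h and irradiated at 365 nm. Lysates for the IGF2BP3 precipitation were digested with RNase I (0.05/0.05, 0.1/0.025 or 0.05/0.025 U/µL, the concentration in the lysate/on the beads) or with RNase T1 (1/1 or 0.25/0.25 U/µL), while the control precipitation with IgG was made with 0.1/0.025 U/µL RNase I. The comparisons ask how the choice of nuclease shapes the set of bound RNAs. There was 1 library per condition, so no test between conditions was possible, and the 95% Wilson and ratio intervals given here cover counting error only. The antibody to IGF2BP3 also recognizes some IGF2BP2, so a cluster cannot be assigned to one paralog alone.

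IGF2BP proteins bind mRNAs through KH and RRM domains, often in 3′UTRs, and are known to protect bound mRNAs from decay in ribonucleoprotein particles that they share with other RNA-binding proteins. PABPC1 and PABPC4 coat poly(A) tails and link them to translation initiation. YBX1 and YBX3 are cold-shock domain proteins that package mRNA, ELAVL1 (HuR) binds AU-rich elements in 3′UTRs, SYNCRIP is an hnRNP that joins complexes protecting mRNA from deadenylation, and LARP1 binds the cap and the 5′ terminal oligopyrimidine tract of ribosomal protein mRNAs. Here the proteins themselves were not measured, only IGF2BP3-crosslinked fragments of the mRNAs that encode them. In these bulk libraries more mRNA and more binding per mRNA cannot be told apart.

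Cluster reads numbered 2362467 in the RNase I 0.05/0.05 library, 1157194 in that of RNase T1 1/1, between 182448 and 803490 in the other 3 IGF2BP3 libraries and 324 in the IgG library. Levels are given in CPM, here reads scaled to 1000000 cluster reads of the library, and 10 CPM corresponded to between 1.82 and 23.6 reads in the IGF2BP3 libraries. The RNase I 0.05/0.05 and RNase T1 1/1 libraries came from gel pieces by electroelution while crushed gel was used for the other 3, so that between a library of the first pair and another of its enzyme the concentration and the gel extraction cannot be told apart. Of the markers of colorectal epithelial cells, 6 of 6 had a cluster in at least 1 library, against 0 of 4 of fibroblasts, 0 of 4 of leukocytes and 1 of 3 of neurons. The neuronal marker was SYT1, which had clusters in all 5 IGF2BP3 libraries, with a mean of 823 CPM over them. This was above the 206 CPM to which the means of the 6 epithelial markers summed. Of the epithelial markers only EPCAM had clusters in all 5 IGF2BP3 libraries.

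Stretches of 30 nt that carried the clusters are shown to give the RNA context of the sites described below. Each one is the middle of the part that was covered in the most IGF2BP3 libraries within the strongest 3′UTR cluster region of its mRNA, and for ELAVL1 the next region is shown too. They are written 5′ to 3′ on the transcript strand of GRCh38, and capitals mark the tetramer CATT and the related ones CATA, then CATC, and also CAGT, which were searched on the transcript strand only. No stretch is shown for PABPC1.
PABPC4 3′UTR, chr1:39561042-39561071, minus strand: ttcctagcttgtcctatggacctcaacacc
YBX1 3′UTR, chr1:42702084-42702113, plus strand: taaatagaactatctgCATTatctatgcag
YBX3 3′UTR, chr12:10699231-10699260, minus strand: gatgctggtgctaaacctccaagtgtcatg
ELAVL1 3′UTR, chr19:7962653-7962682, minus strand: caCATTggatactgttgttcacgataattt
ELAVL1 3′UTR, next region, chr19:7962428-7962457, minus strand: cCAGTtatctattaaccaaaacctttgatt
SYNCRIP 3′UTR, chr6:85611341-85611370, minus strand: tggcaaacaatCATTttgCATTcctgcaaa
LARP1 3′UTR, chr5:154814629-154814658, plus strand: tcacCATAttttctccctgctgttcccacc
The YBX1, SYNCRIP, LARP1 and both ELAVL1 stretches held at least 1 of the tetramers, and those of PABPC4 and YBX3 held none. Windows of 30 nt were taken from 67774 of the 73961 clusters on protein-coding exons with RNase I 0.05/0.05 and from 30892 of 49035 with RNase T1 1/1. Of these windows, 53.1% and 58.3% held at least 1 of the 4 tetramers, so a match in a single stretch was common. The 5 IGF2BP3 libraries covered each stretch except that of YBX3, which 4 of them covered.

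Each of the 7 mRNAs had at least 1 cluster in each of the 5 IGF2BP3 libraries. Of all 20046 protein-coding genes, an exon cluster was present for 43.7%, 32.0% and 30.3% in the RNase I libraries (0.05/0.05, 0.1/0.025 and 0.05/0.025), for 37.6% and 16.7% in the RNase T1 libraries (1/1 and 0.25/0.25) and for 0.0449% in IgG, and 15.8% had one in each of the 5 IGF2BP3 libraries. The target rule asks for 1 or more clusters above both 10 CPM and 0.5 conversion events per read. The target rule was met by 7 of 7 mRNAs in each RNase I library and with RNase T1 0.25/0.25, and by 6 of 7 with RNase T1 1/1. Of the protein-coding genes with a cluster, 50.1%, 66.5% and 72.6% were targets in the RNase I libraries, 52.2% and 82.0% in the RNase T1 libraries, in the order just given, and 66.7% in IgG. The mRNA that missed the rule was YBX1, whose strongest RNase T1 1/1 cluster had 129 reads (111 CPM) but 0.47 conversion events per read. The other 6 mRNAs were targets in all 5 IGF2BP3 libraries, as were 21.2% of the 9353 genes with a cluster. The levels of these mRNAs in the cells were not used here, and their part in meeting the rule was not tested.

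PABPC1 (chr8:100685816-100722809, minus strand) held most of the reads of the 7 mRNAs. In the RNase I libraries it had 11509 reads in 29 clusters (0.05/0.05), 6270 in 23 (0.1/0.025) and 5928 in 24 (0.05/0.025), and in the RNase T1 libraries 2316 in 34 (1/1) and 1678 in 18 (0.25/0.25). These were 4872, 7803, 8838, 2001 and 9197 CPM, in the same order, and the RNase T1 1/1 library had the lowest level and RNase T1 0.25/0.25 the highest, 4.60 times it. PABPC1 made up between 60.9% (RNase T1 1/1) and 87.0% (RNase I 0.05/0.025) of the reads on the 7 mRNAs. Among all protein-coding genes with a cluster, ranked by CPM per kb of the canonical transcript, it stood at place 4 with RNase I 0.05/0.05, at place 3 in 3 other IGF2BP3 libraries and at place 22 of 7444 with RNase T1 1/1. The other 6 mRNAs summed to 1472, 1373, 1325, 1287 and 1743 CPM in the same order of libraries, so that their sum differed less between libraries than the level of PABPC1.

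Per length the remaining mRNAs were far below PABPC1. On the scale of CPM per kb of all annotated exons, PABPC1 had 510, 817, 926, 210 and 963, with the libraries in the order RNase I 0.05/0.05, 0.1/0.025 and 0.05/0.025, then RNase T1 1/1 and 0.25/0.25. On that scale SYNCRIP ranged from 38.7 to 59.6, ELAVL1 from 26.8 to 79.5, LARP1 from 20.2 to 36.6, YBX1 from 14.7 to 40.4, YBX3 from 7.02 to 13.6 and PABPC4 from 3.36 to 11.5. PABPC1 was above each of the others in every IGF2BP3 library, and SYNCRIP was above LARP1 in every one. The range of ELAVL1 overlapped those of SYNCRIP, LARP1 and YBX1, and the range of YBX3 overlapped that of PABPC4. By the median over the 5 libraries, the poly(A)-binding proteins PABPC1 (817) and PABPC4 (10.1) were first and last of the 7. Per kb of the canonical transcript the lowest median was instead that of YBX1 (20.0), followed by PABPC4 (33.1) and YBX3 (47.1), so the last place depends on the length that is used.

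**Figure D1:**
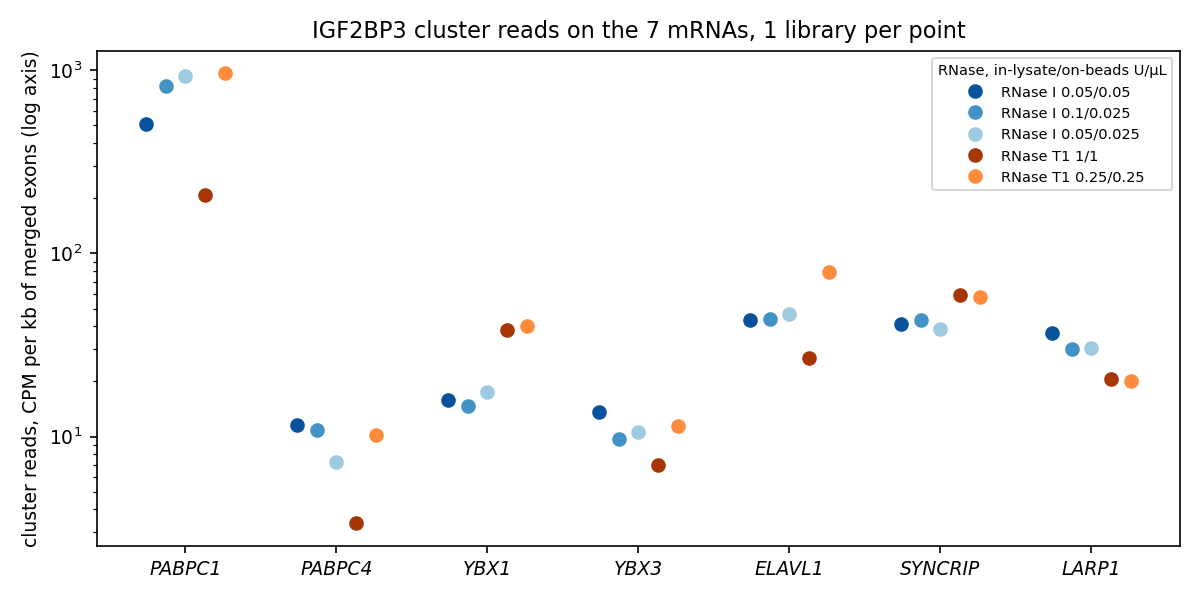
Cluster reads of the 7 mRNAs in CPM per kb of all annotated exons (vertical log axis), with 1 point per IGF2BP3 library and gene. PABPC1 lies above the other 6 in all 5 libraries, from 210 with RNase T1 1/1 to 963 with RNase T1 0.25/0.25, and PABPC4 reaches 11.5 at most.

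PABPC4 (chr1:39560709-39576790, minus strand), the paralog of PABPC1 that also binds poly(A), had 280, 90, 50, 40 and 19 reads in the same order of libraries. At 119, 112, 74.5, 34.6 and 104 CPM it was lowest with RNase T1 1/1, as PABPC1 was. YBX1 (chr1:42682418-42703805, plus strand) had 127, 40, 40, 150 and 25 reads, or 53.8, 49.8, 59.6, 130 and 137 CPM. Both RNase T1 libraries were above the 3 RNase I libraries for YBX1, with no overlap. YBX3 (chr12:10699089-10723323, minus strand) had 277, 67, 61, 70 and 18 reads, or 117, 83.4, 90.9, 60.5 and 98.7 CPM, and its highest level was 1.94 times its lowest, with no separation of the enzymes.

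ELAVL1 (chr19:7958573-8005659, minus strand) had 715, 246, 217, 216 and 101 reads, or 303, 306, 324, 187 and 554 CPM. Its RNase T1 libraries were the lowest and the highest, and the 3 RNase I libraries lay close together between them. SYNCRIP (chr6:85607779-85644063, minus strand) had 1021, 364, 271, 721 and 110 reads, or 432, 453, 404, 623 and 603 CPM. Both RNase T1 libraries were above the 3 RNase I libraries, as for YBX1, and SYNCRIP differed least across libraries, with a highest level of 1.54 times the lowest. LARP1 (chr5:154682986-154817605, plus strand) had 1057, 296, 250, 292 and 45 reads, or 447, 368, 373, 252 and 247 CPM. In LARP1 the order was the opposite one, with both RNase T1 libraries below the 3 RNase I libraries.

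The electroeluted pair of libraries allowed the 2 enzymes to be compared under the same gel extraction, although at concentrations of different enzymes that have no common scale. The CPM ratio of RNase I 0.05/0.05 over RNase T1 1/1 was 3.43 for PABPC4 (interval 2.46 to 4.78), 2.43 for PABPC1 (2.33 to 2.55), 1.94 for YBX3 (1.49 to 2.52), 1.77 for LARP1 (1.56 to 2.02) and 1.62 for ELAVL1 (1.39 to 1.89). It was 0.694 for SYNCRIP (0.631 to 0.763) and 0.415 for YBX1 (0.327 to 0.525). Over the 2926 protein-coding genes with at least 50 CPM in both libraries the median ratio was 0.956, its quartiles were 0.706 and 1.34, and 46.0% of genes were above 1. PABPC4 had 34.6 CPM with RNase T1 1/1 and so was not among these genes. The 5 mRNAs with more CPM after RNase I were above the upper quartile and SYNCRIP and YBX1 were below the lower one, which describes these 2 libraries and not the enzymes in general. The SYNCRIP interval included that quartile, and without the clusters that have an exact copy elsewhere in the genome its ratio was 0.789, between the quartiles, while YBX1 had no RNase T1 1/1 reads left.

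In the crushed-gel libraries the ratios were not all in the same direction as in the electroeluted pair. RNase I 0.1/0.025 over RNase T1 0.25/0.25 gave 1.49 for LARP1 (1.09 to 2.04), 1.08 for PABPC4 (0.656 to 1.76), 0.848 for PABPC1 (0.804 to 0.895) and 0.845 for YBX3 (0.502 to 1.42). It gave 0.751 for SYNCRIP (0.607 to 0.930), 0.553 for ELAVL1 (0.439 to 0.697) and 0.363 for YBX1 (0.220 to 0.599), beside a median of 1.00 over 2134 genes. These genes had at least 50 CPM in both libraries, and YBX1, at 49.8 CPM with RNase I 0.1/0.025, was not among them. RNase I 0.05/0.025 over the same RNase T1 library gave 1.51 for LARP1, 0.961 for PABPC1, 0.922 for YBX3, 0.716 for PABPC4, 0.670 for SYNCRIP, 0.584 for ELAVL1 and 0.435 for YBX1. Thus YBX1 and SYNCRIP were lower and LARP1 was higher after RNase I in each of the 3 ratios. PABPC1, YBX3 and ELAVL1 were higher after RNase I in the electroeluted pair and lower in both crushed-gel ratios, with intervals that include 1 for YBX3 in both and for PABPC1 in the ratio with RNase I 0.05/0.025. Both crushed-gel ratios share the RNase T1 0.25/0.25 library, which had the fewest reads. Without the clusters that have an exact copy, and with the library totals kept, the YBX3 ratio with RNase I 0.05/0.025 turned from 0.922 to 1.38 (0.745 to 2.57), and the PABPC4 ratio with RNase I 0.1/0.025 turned from 1.08 to 0.896 (0.542 to 1.48). The PABPC1 ratios were then 0.633 (0.591 to 0.679) with RNase I 0.1/0.025 and 0.507 (0.471 to 0.546) with RNase I 0.05/0.025. Those of SYNCRIP and LARP1 kept their direction. With RNase I 0.1/0.025 their intervals included 1, at 0.901 (0.713 to 1.14) and 1.28 (0.930 to 1.75). With RNase I 0.05/0.025 they did not, at 0.733 (0.574 to 0.936) and 1.48 (1.08 to 2.04). YBX1 had no reads left with RNase T1 0.25/0.25.

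**Figure D2:**
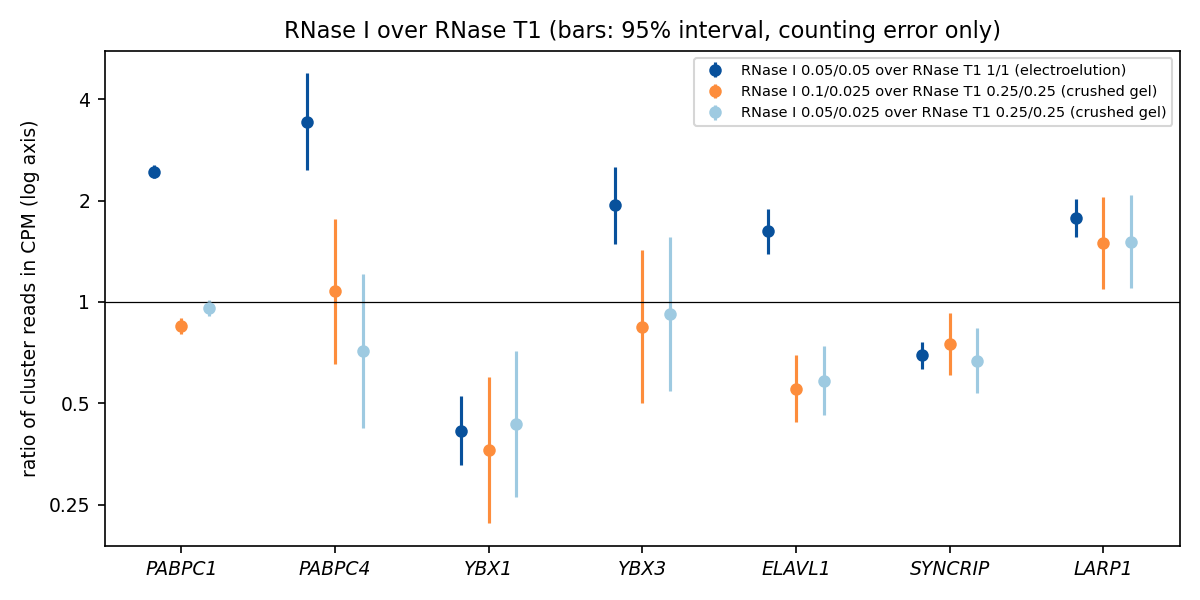
CPM ratio of RNase I over RNase T1 (log axis) for the 7 mRNAs in 3 pairs of libraries, with points for the ratios and bars for their 95% counting intervals. YBX1 and SYNCRIP lie below 1 and LARP1 above 1 in each pair, whereas PABPC1 moves from 2.43 in the electroeluted pair to 0.848 and 0.961 in the crushed-gel pairs.

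The 7 mRNAs also differed in where their clusters lay. For PABPC1 the share of reads in clusters assigned to the 3′UTR was 1.85%, 1.47% and 0.843% after RNase I (0.05/0.05, 0.1/0.025 and 0.05/0.025) and 5.35% and 0.358% after RNase T1 (1/1 and 0.25/0.25). Its coding sequence held 96.8%, 96.2%, 96.7%, 88.3% and 98.7% of the reads. Over all clusters on protein-coding exons the 3′UTR held between 81.0% and 87.6% of the reads, so PABPC1 was reversed in its balance of coding sequence and 3′UTR. ELAVL1 had 95.2%, 97.6%, 100%, 94.9% and 100% of its reads in the 3′UTR, SYNCRIP 91.2%, 95.6%, 88.9%, 96.1% and 100%, LARP1 86.4%, 83.8%, 91.6%, 97.3% and 100%, and YBX3 89.2%, 91.0%, 100%, 87.1% and 100%. These 4 mRNAs were bound mainly in their 3′UTRs in every IGF2BP3 library. YBX1 had 62.2%, 55.0%, 82.5%, 92.7% and 100%, and PABPC4 56.1%, 47.8%, 38.0%, 50.0% and 100%, so both also carried coding-sequence reads except in the shallowest library, where PABPC4 had 19 reads and YBX1 25.

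Pooled, the 7 mRNAs had 21.5%, 14.3%, 12.5%, 40.1% and 16.2% of their reads in 3′UTRs, and without PABPC1 86.5%, 87.2%, 90.0%, 94.2% and 100%. PABPC1 thus lowered the pooled share in every IGF2BP3 library. The PABPC4 3′UTR share of 56.1% with RNase I 0.05/0.05 (interval 50.2% to 61.8%) was between those of PABPC1 and of the other 5. It depends on the feature order, because 125 of these 157 3′UTR reads lay in 1 cluster that also overlapped annotated coding sequence. With coding sequence assigned first, that cluster counts as coding sequence. The 3′UTRs differ in length, from 320 nt in PABPC4 and 445 nt in PABPC1 to 4910 nt in ELAVL1 for the canonical transcripts.

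**Figure D3:**
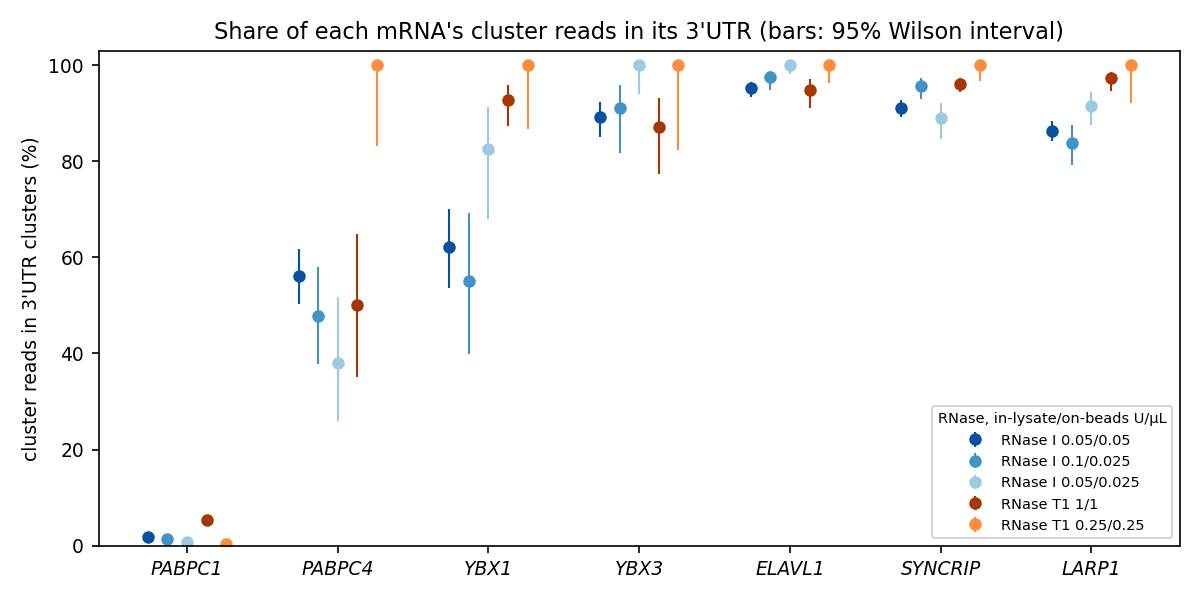
Share of the cluster reads of each of the 7 mRNAs that was assigned to the 3′UTR (percent, vertical axis), with 1 point per IGF2BP3 library and bars for the 95% Wilson interval. PABPC1 lies between 0.358% and 5.35% in all libraries, and ELAVL1 between 94.9% and 100%.

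Within PABPC1, exon 8 held the largest share of the reads of the gene in each IGF2BP3 library, at 29.7%, 33.5%, 37.6%, 24.3% and 41.7% in the same order. The exon is 273 nt long (chr8:100709459-100709731) and holds codons 325 to 415 of 636. Exon 11 (chr8:100706651-100706805, 155 nt, codons 483 to 534) held 20.9%, 21.5%, 21.7%, 13.5% and 28.1%. Per length, exon 11 was the denser of the 2 in the RNase I libraries and with RNase T1 0.25/0.25, at 3.90, 4.00, 4.03 and 5.20 times the transcript mean in CPM per kb, against 3.15, 3.53, 3.96 and 4.39 times for exon 8. With RNase T1 1/1 exon 13 was the denser one, at 3.57 times the mean against 2.64 for exon 8. Exons 8 and 11 together carried a large part of the PABPC1 reads under both enzymes, and the RNase T1 1/1 library, in which PABPC1 was lowest, had the smallest share in both. Exon 13 held 15.8% of the reads in that library and between 4.71% and 8.64% in the other IGF2BP3 libraries, and exon 1 held 11.3% in it and between 2.92% and 6.02% in the others. Exon 5 was almost free of reads, with at most 0.13% in any library. Of the 128 PABPC1 clusters of the IGF2BP3 libraries, 21 ended exactly at an internal edge of the canonical exons (16.4%), and 33 crossed one. In PABPC4 1 of 36 clusters ended at such an edge, in SYNCRIP 1 of 110, and in YBX1, YBX3, ELAVL1 and LARP1 0. These other mRNAs had larger shares of reads in 3′UTRs than PABPC1, and the part of location in this difference was not tested. Of the PABPC1 clusters, 3 also overlapped the miRNA gene MIR7705. The reads had been aligned to the genome without splicing, so reads that span a junction could not be placed as spliced reads. Mismatches were allowed, and whether such reads were placed past an exon edge or on an intronless copy was not tested.

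**Figure D4:**
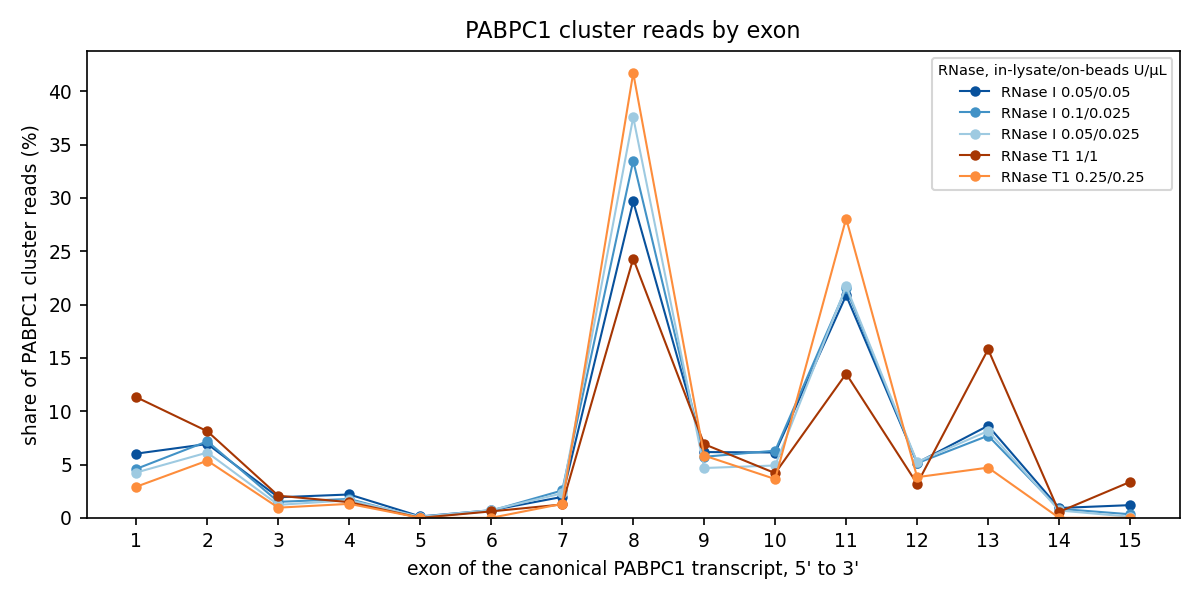
Share of the PABPC1 cluster reads (percent, vertical axis) that lay on each of its 15 exons (horizontal axis), with 1 line per IGF2BP3 library. By reads, without regard to exon length, exon 8 is highest in each library, from 24.3% with RNase T1 1/1 to 41.7% with RNase T1 0.25/0.25.

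PABPC1 has near-identical copies in the genome, which limits these values. GENCODE lists 13 processed pseudogenes named after PABPC1, and 6 of them (PABPC1P1, PABPC1P2, PABPC1P3, PABPC1P4, PABPC1P7 and PABPC1P10) had clusters. Between 35.2% (RNase T1 0.25/0.25) and 65.8% (RNase I 0.05/0.025) of the PABPC1 reads lay in clusters with an exact copy elsewhere in the genome. The copy was sought for the 30 nt around the deposited mode position of the cluster, or for the whole cluster where it was shorter. The intronless relative PABPC3 had 4018, 2301, 2304, 745 and 571 cluster reads and the PABPC1 pseudogenes 7579, 4153, 3658, 1208 and 1067, in the order of libraries used above. Reads on these copies were thus about as many as those on PABPC1 itself, at 1.01, 1.03, 1.01, 0.843 and 0.976 times its reads. The sources used here do not say how reads with several matching places were assigned. Without the clusters that have an exact copy PABPC1 had 2521, 3774, 3022, 1042 and 5958 CPM, again lowest with RNase T1 1/1 and highest with RNase T1 0.25/0.25. The clusters left out were not the same parts of PABPC1 in all libraries, so these levels do not compare like parts of it. YBX1 was also uncertain, since 82.5% to 100% of its reads lay in clusters with an exact copy and 3 of its 10 annotated pseudogenes (YBX1P1, YBX1P2 and YBX1P10) had clusters. ELAVL1 had no such read, YBX3 up to 44.8%, PABPC4 and SYNCRIP up to 20.0% and LARP1 up to 14.5%.

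Merging overlapping clusters of the 5 IGF2BP3 libraries gave 142 regions on the 7 mRNAs, of which 26 were present in all 5 libraries. There were 67 regions with clusters after both enzymes (47.2%), 68 with RNase I alone (47.9%) and 7 with RNase T1 alone (4.93%), and 41 were seen in the deepest library, RNase I 0.05/0.05, and in no other. Of the 78106 regions formed in the same way on all protein-coding exons, 6.78% were in all 5 libraries, 32.0% were found after both enzymes, 55.2% after RNase I alone and 12.8% after RNase T1 alone. RNase I had 3 libraries, one of them the deepest, against 2 of RNase T1. PABPC1 had 11 of its 28 regions in all 5 libraries, SYNCRIP 5 of 35, LARP1 4 of 30, ELAVL1 3 of 18, and PABPC4, YBX1 and YBX3 1 each, of 18, 5 and 8. In PABPC4, 14 of 18 regions had RNase I clusters alone, and in LARP1 20 of 30 did. Of the RNase T1 1/1 clusters on the 7 mRNAs, 97 of 106 shared 1 nt or more with a RNase I 0.05/0.05 cluster (91.5%, 84.6% to 95.5%), compared with 76.9% of all clusters on protein-coding exons. With an overlap of at least 50% of both clusters it was 29 of 106 (27.4%, 19.8% to 36.5%), compared with 8828 of the 49035 RNase T1 1/1 clusters on protein-coding exons. In the other direction and with 1 nt, 73 of 141 did (51.8%, 43.6% to 59.9%), compared with 38.1%. The clusters of the 7 mRNAs had a median length of 71 nt with RNase I 0.05/0.05, compared with 57 nt on all protein-coding exons, and the part of cluster length in these overlaps was not tested.

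The ELAVL1 3′UTR was bound near its start. Cut into 4 equal parts, its 4910 nt held in the first part 81.8%, 95.4%, 90.8%, 90.2% and 100% of its 3′UTR reads in the same order of libraries. For genes with at least 50 reads and a 3′UTR of at least 1000 nt, the median share of the first part was between 29.1% and 33.8%. The strongest ELAVL1 stretch, shown above with its CATT, was centred 816 nt after the stop codon and lay in clusters of 244, 88, 55, 45 and 20 reads. The next one, with a CAGT, was centred 1041 nt after the stop codon and lay in clusters of 117, 46, 43, 79 and 30 reads. In both RNase T1 libraries the cluster over the second stretch had more reads than that over the first, and in the 3 RNase I libraries fewer.

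LARP1 reads were spread over its 3509 nt 3′UTR. The first of its 4 parts held 22.5%, 16.9% and 19.2% in the RNase I libraries and 40.5% and 44.4% with RNase T1 1/1 and 0.25/0.25. The third part held 42.5%, 45.2% and 35.4% with RNase I and 22.9% and 22.2% with RNase T1. The first part thus led in both RNase T1 libraries, where the 0.25/0.25 values rest on 45 reads. With RNase I the third part led at 0.05/0.05 and 0.1/0.025, and at 0.05/0.025 it was level with the second (35.4%). The stretch shown above, with a CATA, was centred 547 nt after the stop codon and lay in clusters of 171, 31, 26, 55 and 14 reads. A stretch that was centred 2180 nt after the stop codon lay in clusters of 234, 43, 48, 28 and 10 reads, more than the former in the RNase I libraries and fewer in the RNase T1 libraries.

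**Figure D5:**
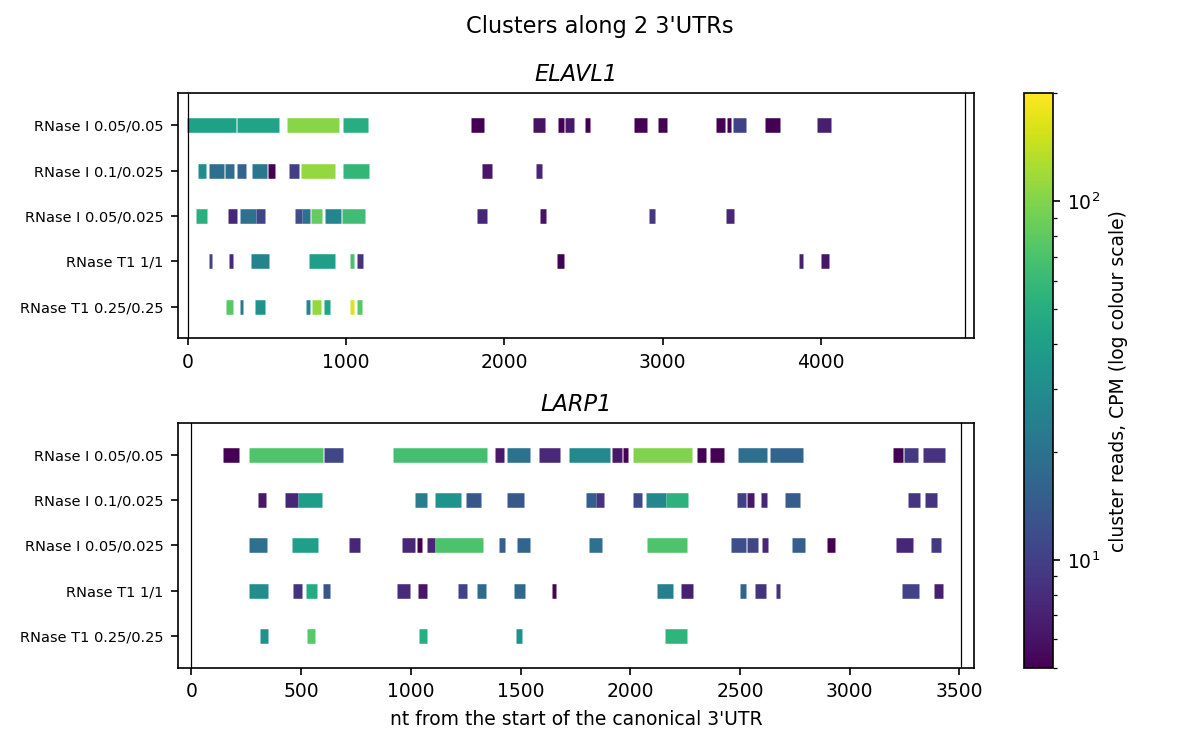
Clusters along the canonical 3′UTRs of ELAVL1 and LARP1 (horizontal axis, nt after the stop codon), with 1 track per IGF2BP3 library and colour for the CPM of the cluster. The ELAVL1 clusters of high CPM gather in the first of 4 equal parts of its 4910 nt, and the LARP1 clusters extend along its 3509 nt.

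In YBX1 the 3′UTR reads (79, 22, 33, 139 and 25) were all in the first of 4 equal parts of its 1856 nt in each IGF2BP3 library. They formed 1 region, and the stretch printed for it, with its CATT, was centred 149 nt after the stop codon. It lay in clusters of 44, 15, 8, 129 and 18 reads. The YBX3 stretch, centred 444 nt after the stop codon, lay in clusters of 63, 30 and 32 reads with RNase I and of 5 with RNase T1 0.25/0.25, and no RNase T1 1/1 cluster covered it. The PABPC4 stretch, centred 80 nt after the stop codon, lay in clusters of 125, 36, 19, 15 and 12 reads. SYNCRIP reads lay on alternative transcripts, since 0% to 14.3% of them fell on the exons of its canonical transcript. Its 3′UTR is 780 nt in that transcript and 7073 nt over all annotated ones. The stretch shown for SYNCRIP, with its CATT pair, lay in clusters of 228, 82, 86, 59 and 31 reads. In addition 22 of the 110 SYNCRIP clusters also overlapped exons of the protein-coding gene ENSG00000271793 on the same strand and cannot be assigned to either.

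The conversion events per read of the 7 mRNAs lay between the 5th and the 95th percentile of protein-coding genes with at least 10 reads in 34 of 35 combinations of mRNA and IGF2BP3 library. PABPC1 had 0.64, 0.67, 0.63, 0.54 and 0.60 events per read, and the medians of all protein-coding genes with a cluster were 0.641, 0.659, 0.622, 0.534 and 0.575. LARP1 ranged from 0.55 to 0.69, PABPC4 from 0.53 to 0.62, SYNCRIP from 0.49 to 0.67, YBX1 from 0.47 to 0.66, YBX3 from 0.54 to 0.76 and ELAVL1 from 0.39 to 0.65. The lowest value was that of ELAVL1 with RNase T1 0.25/0.25, and the highest that of YBX3 with RNase T1 1/1, which was the one above the 95th percentile (0.73). RNase T1 cleaves after G, and G was the last base of 92.5% and 85.4% of the clusters of the 7 mRNAs with RNase T1 1/1 and 0.25/0.25, compared with 11.2% to 19.9% with RNase I. Over all protein-coding exons it was 94.8% and 92.0% with RNase T1 and 12.1% to 13.3% with RNase I.

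CATT was present in 42.6%, 35.7%, 42.4%, 30.2% and 31.3% of the clusters of the 7 mRNAs, compared with 39.5%, 41.6%, 41.0%, 35.2% and 40.0% of all clusters on protein-coding exons. CAGT was present in 39.0%, 35.7%, 27.1%, 16.0% and 25.0%, compared with 34.9%, 35.2%, 34.2%, 11.8% and 18.7%. For both tetramers the shares of the 7 mRNAs lay on either side of those of all genes. CAGT was less frequent in the RNase T1 libraries than in the RNase I libraries in both sets of clusters. CATA ranged from 16.0% to 22.7% and CATC from 27.1% to 33.3% on the 7 mRNAs, compared with 20.8% to 24.4% and 22.4% to 30.3% on all genes.

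In the IgG library 1 of the 25 clusters lay on an exon of the 7 mRNAs. It was on PABPC1 exon 11 (chr8:100706669-100706775, minus strand, 107 nt) and had 15 of the 324 IgG reads (4.63%, 2.83% to 7.50%) and 12 conversion events at 10 positions, or 0.80 per read. With IGF2BP3 at the same RNase I 0.1/0.025, PABPC1 had 6270 of 803490 reads (0.780%, 0.761% to 0.800%), and the cluster that overlapped the IgG one had 1349 reads. The IgG cluster thus lay within an exon that held 21.5% of the PABPC1 reads of that IGF2BP3 library, and PABPC1 took a larger share of the few IgG reads than of the IGF2BP3 reads. The 30 nt around the mode position of the IgG cluster occurred at 3 places of the genome. PABPC1 met the target rule in IgG, where 10 CPM is less than 1 read. The other 6 mRNAs had 0 of 324 IgG reads, which allows a share of up to 0.926% each.

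Genes of the same pathways were taken from lists, and their CPM are not divided by length. Of 8 poly(A)-binding proteins and regulators of PABP, 5 had a cluster, 5 were targets in at least 1 IGF2BP3 library and 2 in all 5. The most reads were on PABPC3, which shares sequence with PABPC1 (mean of 2355 CPM over the 5 libraries), on PAIP2, an inhibitor of PABP (115), and on PABPN1, the nuclear poly(A)-binding protein (30.7), and PABPC1L, PABPC4L and PABPC5 had no cluster. Of 12 paralogs and relatives of the 7 genes, 8 had a cluster, 5 were targets in at least 1 library and 4 in all 5. HNRNPR, the paralog of SYNCRIP, had a mean of 310 CPM and LARP4B 213. YBX2, ELAVL2, ELAVL3 and ELAVL4, known mainly from germ cells or neurons, had no cluster. Thus ELAVL1 was the only ELAVL gene with clusters.

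Of 11 genes of other proteins found in IGF2BP particles, 11 had a cluster, 9 were targets in at least 1 library and 7 in all 5. The stress granule proteins G3BP1 and CAPRIN1 had means of 773 and 756 CPM and the nuclear matrix protein MATR3 576, and FXR2 and UPF1 were never targets. Of 7 genes of AU-rich element binding proteins, 7 had a cluster, 6 were targets in at least 1 library and 3 in all 5. ZFP36L1, which promotes decay of AU-rich mRNAs, had a mean of 1261 CPM, KHSRP 441 and ZFP36L2 317, and HNRNPD was not a target. Of the 9353 genes with a cluster 63.3% were targets in at least 1 library.

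The profile over the 5 IGF2BP3 libraries that was most like that of each mRNA was sought among 1898 genes with at least 50 CPM in each library, by the root mean square difference of log2 CPM after centring each gene. PABPC1 was nearest to PABPC3 (0.09 on the log2 scale), with which it shares sequence. SYNCRIP was nearest to BPNT2 (0.04), LARP1 to TNFRSF12A (0.07), YBX3 to UBAP2 (0.08) and ELAVL1 to ATP6V1D (0.10). PABPC4 and YBX1 had under 50 CPM in at least 1 library and were not entered.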

How the data were processed

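IR-PAR-CLIP clusters from 6 libraries of HCT116 cells were analysed, 5 with IGF2BP3 and 1 with IgG. The authors demultiplexed reads with bcl2fastq 2.20.0.422, removed identifiers and adapters with UMI-tools 1.1.1, selected read size and quality by Trimmomatic 0.30, mapped to GRCh38 using Bowtie 0.12.7, then deduplicated with UMI-tools and called clusters per library with PARalyzer, per the methods and the submitters' processing notes. For each cluster the authors deposited raw read counts, conversion counts and non-conversion counts. The deposited mode score, a fraction, was not used. How reads with several matching places were assigned is not given in the sources used here.

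Groups followed the labels. CPM was relative to the cluster reads of a library, which are not the sequenced depth. Clusters overlapping several features were given to the 3′UTR before the coding sequence and to the 5′UTR before any other exon of GENCODE release 44. The genes named are the 7 genes themselves, of each list the 3 with the highest mean CPM and those with no cluster or no target cluster, the nearest profile of each gene, and pseudogenes with a cluster, except 1 gene that is not reported here. The genes and lists were chosen with earlier results of these data known. The tools were pandas 2.3.3, numpy 2.4.6, pysam 0.24.0, scipy 1.17.1 and matplotlib 3.10.9 in Python 3.11.15, and the target step was tested on simulated data. Alternatives changed the CPM and conversion thresholds, the feature order, the transcripts, shared or copied clusters and the overlap.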

Additional observations from a re-analysis of the deposited data

Results flagged for a closer look

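The CPM ratio of RNase I over RNase T1 had a different direction in the electroeluted pair and in the crushed-gel libraries for 3 mRNAs, and the difference itself was not tested. For PABPC1 it was 2.43 in the electroeluted pair and 0.848 and 0.961 in the crushed-gel ratios with RNase I 0.1/0.025 and 0.05/0.025. For YBX3 it was 1.94, 0.845 and 0.922, and for ELAVL1 1.62, 0.553 and 0.584. Without clusters that have an exact copy elsewhere in the genome the YBX3 ratio with RNase I 0.05/0.025 was 1.38, so its direction there no longer differed from the electroeluted pair. Both crushed-gel ratios share 1 RNase T1 library, and the RNase concentration differs together with the gel extraction, so that these cannot be told apart.

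Clusters outside exons were not part of the comparisons above. PABPC1 introns had 80, 26 and 28 cluster reads after RNase I (0.05/0.05, 0.1/0.025 and 0.05/0.025), 28 after RNase T1 1/1, and 0 in the IgG library. With RNase I 0.05/0.05, intronic clusters held 7 reads on YBX1 and 16 on ELAVL1.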

How the results depend on the processing

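No paired analysis was possible because there was 1 library per condition and the labels carry no replicate numbers. At a threshold of 0.75 events per read, 2 of the 7 mRNAs were targets after 0.05/0.05 RNase I, 4 after 0.1/0.025 RNase I and 3 after RNase T1 1/1 as well as 3 after RNase T1 0.25/0.25. Of all genes with a cluster, 15.4%, 38.1%, 19.4% and 47.3% were targets in these libraries at that threshold. With conversion read as more than 0.5 of the events at T, 0 were targets in any of the 6 libraries, and of all genes at most 2 were, with RNase T1 1/1. With at least 20 reads in place of the CPM threshold, 2 were targets with RNase T1 0.25/0.25, where 15.1% of genes were, and 0 with IgG, where 0 genes were, and without clusters that have an exact copy 0 were with IgG. The other 41 counts under alternatives were within 1.5 times the reported ones.

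The 3′UTR share of the 7 mRNAs together fell to 18.3%, 13.02% and 11.6% in the RNase I 0.05/0.05, 0.1/0.025 and 0.05/0.025 libraries with coding sequence assigned first. With canonical transcripts alone it was 14.9%, 9.44%, 8.68%, 21.1% and 10.4% in these and in RNase T1 1/1 and 0.25/0.25, since most SYNCRIP reads are then lost. It was 32.0%, 23.9%, 27.9%, 52.0% and 20.0% without clusters that have an exact copy. With PABPC1 left out, an alternative chosen after seeing the data, it was 86.5%, 87.2%, 90.0%, 94.2% and 100%.

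The SYNCRIP ratio of 0.694 became 0.504 without clusters shared with another gene and 0.789 without those with an exact copy, and 25 other ratios moved by less than their counting interval. No YBX1 ratio could be had without copies, because no reads were left in the RNase T1 libraries. Without copies, also an alternative chosen after seeing the data, the crushed-gel ratios became 0.633 and 0.507 for PABPC1, 0.896 for PABPC4 with RNase I 0.1/0.025 and 1.38 for YBX3 with RNase I 0.05/0.025, and the last 2 changed direction. The other 8 stayed within their counting intervals. For PABPC1 the clusters left out were not the same parts of the gene in all libraries. With an overlap of at least 50% of both clusters, 27.4% of the RNase T1 1/1 clusters overlapped, against 8828 of 49035 over all genes. Low read counts limit PABPC4, YBX1 and YBX3 most, above all with RNase T1 0.25/0.25.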
